A study of Mus musculus with 30 samples.

Results

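The collagen family was taken as every row of the gene count table whose symbol has the form Col, a number, a and a number, which gave 44 alpha chain genes among 55426 rows. The genes were read from RNA sequencing of mouse Achilles tendon and of calcaneus, the heel bone on which that tendon inserts, in 30 samples that form 10 groups of 3. In each tissue the groups were stimulated at day 5, unstimulated at day 5, stimulated at day 12, unstimulated at day 12 and naive at day 0. Stimulated animals had their muscle loaded by optogenetics, that is, by light acting on a light-gated channel, and the question of the study was how this loading changed gene expression in tendon and bone relative to unstimulated or naive mice. Every group, naive mice included, has the same genotype, written Acta1,Ai32. Ai32 is a Cre-dependent channelrhodopsin reporter allele and Acta1 is the skeletal muscle actin gene, and the labels spell out neither the driver nor the age of the mice. Where a title adds the word control to a stimulated sample, the treatment label, which says stimulated, was followed.

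Collagens are secreted or membrane-bound proteins whose chains wind around each other into a stiff helix. Fibrillar collagens pack side by side into the fibres that carry tensile load in tendon and that are mineralised in bone, while other classes sit on the fibre surface, form the sheet under epithelia, endothelia and muscle fibres, or span the cell membrane. The chains are hydroxylated, glycosylated and folded in the endoplasmic reticulum, trimmed by proteases outside the cell and crosslinked by lysyl oxidases. By structural class the family held 11 fibrillar genes, 9 FACIT genes (collagens with interrupted helices that decorate fibrils), 6 genes of type IV collagen of the basement membrane, 6 of the microfibrillar type VI, 3 of short chain networks, 2 multiplexins, 4 transmembrane collagens and 3 others led by the anchoring fibril gene Col7a1.

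Total counts ranged from 24.5 M to 44.6 M in tendon libraries and from 19.3 M to 35.0 M in bone libraries, where M stands for 1000000. Samples 1 and 2 of unstimulated bone at day 5 were near-identical, with a chi-square per gene of 6.28 against 18.8 to 208 in the 29 other pairs within groups, so they were summed and that group counts as 2 libraries. The summed pair also had 154 CPM (counts scaled to a library total of 1000000) of 7 keratinocyte markers, against at most 7.96 CPM elsewhere. The markers matched the tissue labels: all 7 tendon fibroblast markers passed the test as higher, and all 9 osteoblast and all 8 cartilage markers as lower, in naive tendon than in naive bone. Muscle RNA was abundant in the tendon samples, where 12 muscle fibre genes summed to between 129000 and 188000 CPM in naive tendon and 129 to 13900 CPM in naive bone.

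Col7a1, Col8a1 and Col8a2 were among 8 collagens that differed from naive tendon at day 12 in every fit that left out 1 library of the stimulated comparison. Col3a1 is the main fibrillar gene that was called in opposite directions in the tissues, in unstimulated samples at day 12. The promoters of these 4 collagens are shown. Each is the RefSeq sequence on GRCm38.p6 of the 250 bases before the start, read 5′ to 3′ on the gene's strand. Capitals mark 3 motifs searched on both strands. The TATA motif is TATAAA. The CCAAT motif appears as ATTGG when it is on the other strand. The GC box is searched as GGGCGG, which reads CCGCCC from the other strand, and overlapping matches run together.
Col7a1: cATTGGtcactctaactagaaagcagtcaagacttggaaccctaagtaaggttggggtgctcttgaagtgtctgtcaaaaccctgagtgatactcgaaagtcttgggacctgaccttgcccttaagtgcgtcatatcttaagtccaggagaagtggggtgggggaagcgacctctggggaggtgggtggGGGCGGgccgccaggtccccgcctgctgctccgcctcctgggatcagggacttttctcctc
Col8a1: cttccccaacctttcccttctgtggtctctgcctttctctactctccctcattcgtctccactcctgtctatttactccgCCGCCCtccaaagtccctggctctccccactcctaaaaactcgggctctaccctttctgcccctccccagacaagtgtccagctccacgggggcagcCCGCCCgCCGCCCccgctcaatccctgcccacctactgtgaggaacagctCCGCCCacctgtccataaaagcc
Col8a2: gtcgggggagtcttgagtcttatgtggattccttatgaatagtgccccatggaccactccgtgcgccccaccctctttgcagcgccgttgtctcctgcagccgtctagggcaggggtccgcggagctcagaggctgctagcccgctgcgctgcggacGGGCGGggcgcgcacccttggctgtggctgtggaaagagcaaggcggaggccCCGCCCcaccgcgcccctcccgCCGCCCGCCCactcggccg
Col3a1: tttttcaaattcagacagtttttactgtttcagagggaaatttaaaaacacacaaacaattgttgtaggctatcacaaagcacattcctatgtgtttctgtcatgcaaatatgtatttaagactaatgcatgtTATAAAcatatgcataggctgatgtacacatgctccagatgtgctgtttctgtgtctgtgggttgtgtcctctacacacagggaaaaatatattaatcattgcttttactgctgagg
Col7a1 encodes the chain of the anchoring fibrils that tie basement membranes to the stroma below, and its window lies at chr9:108953336-108953585 on the plus strand. Col8a1 and Col8a2 encode the chains of type VIII collagen, a hexagonal network known from vessel walls and the cornea, with windows at chr16:57754738-57754987 on the minus strand and chr4:126286544-126286793 on the plus strand. Col3a1 encodes type III collagen, which forms thin fibres with type I collagen in soft and healing tissue, and its window is at chr1:45311288-45311537 on the plus strand. The Col3a1 window held 1 TATAAA and no GGGCGG, with a GC content of 35.2%. The type VIII windows held 4 GGGCGG each, with GC contents of 60.8% for Col8a1 and 70% for Col8a2, and the Col7a1 window held 1 CCAAT and 1 GGGCGG at 56.4% GC.

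RefSeq promoter entries were matched for 35 of the 44 collagens, with 38 windows in all. Of these, 13.2% held TATAAA, against 12.4% of all 32851 windows of that length, 34.2% held CCAAT, against 33.8%, and 57.9% held GGGCGG, against 32.7%. TATAAA was found in windows of Col3a1, Col10a1, Col11a2, Col13a1 and Col17a1. Several collagens are neighbours in the genome: Col4a3 and Col4a4 start 71 bases apart, Col4a5 and Col4a6 1308 bases apart, and Col4a1 and Col4a2 overlap by 22 bases. Col3a1 and Col5a2 lie 24.6 kb apart on chromosome 1, and Col6a1 and Col6a2 lie 85.2 kb apart.

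Type I collagen dominated the family in both tissues. Per kilobase of the principal transcript, Col1a2 stood at 3730 ± 1570 CPM per kb in naive tendon and 8450 ± 319 CPM per kb in naive bone (SD, n = 3 each), and Col1a1 at 2900 ± 1290 CPM per kb in naive tendon and 6170 ± 294 CPM per kb in naive bone. The 2 genes encode the chains of type I collagen, the main fibre protein of tendon and bone, and lie at chr11:94936224-94953042 (Col1a1, ENSMUSG00000001506) and chr6:4504814-4541544 (Col1a2). The next gene per kb in naive tendon was Col3a1, at 539 ± 20.7 CPM per kb, ahead of the type VI genes Col6a2 at 202 and Col6a1 at 191 CPM per kb and the type IV gene Col4a1 at 136 CPM per kb. In naive bone it was Col2a1, the fibrillar collagen of cartilage, at 504 ± 91.6 CPM per kb, with Col3a1 at 492 ± 73.9 CPM per kb, so that these neighbours in the order did not differ beyond their spread. Bone then showed the minor fibrillar gene Col11a2 at 314 CPM per kb and Col10a1, the network collagen of hypertrophic cartilage, at 285 CPM per kb.

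The chains of type I collagen, and the first 2 chains of type VI, kept their proportions within a narrow range over the libraries. The ratio of Col1a1 to Col1a2 per kb was 0.745 ± 0.0679 over 29 libraries, with a range of 0.627 to 0.897, and that of Col6a1 to Col6a2 was 1.02 ± 0.0721, with a range of 0.925 to 1.2 (SD). The ratio of Col4a1 to Col4a2 was 1.31 ± 0.0402 in tendon and 1.14 ± 0.0624 in bone. Several other partner chains varied more, with a range of 0.447 to 4.57 for Col9a2 to Col9a1, 0.376 to 3.05 for Col8a1 to Col8a2, 0.882 to 4.34 for Col4a4 to Col4a3 and 0.24 to 0.543 for Col11a1 to Col11a2. The wide range of Col9a2 to Col9a1 was that of tendon, where both genes were low, and in bone it was 0.977 to 1.57. These ratios describe mapped counts per kb and not protein, since the length used for each gene is that of 1 transcript.

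The family took 4.06 ± 1.47% of all counts in naive tendon and 12.3 ± 0.256% in naive bone (SD, n = 3 each). In tendon the share was 1.45 ± 0.687% in stimulated and 1.66 ± 1.06% in unstimulated samples at day 5, and 1.02 ± 0.448% in stimulated and 0.946 ± 0.412% in unstimulated samples at day 12. In bone it was 10.7 ± 0.588% in stimulated samples at day 5 and 9.55 ± 1.08% in unstimulated ones (n = 2), and at day 12 it was 8.02 ± 1.45% in stimulated and 8.9 ± 0.462% in unstimulated samples. Every stimulated or unstimulated bone sample lay below every naive one, and in tendon the libraries of day 12 lay below all naive ones, whereas at day 5 replicate 3 of the unstimulated group, at 2.88%, lay above the lowest naive library, at 2.51%. Fewer cells of a type and less RNA per cell cannot be told apart in such bulk samples, here or in any later result.

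**Figure D1:**
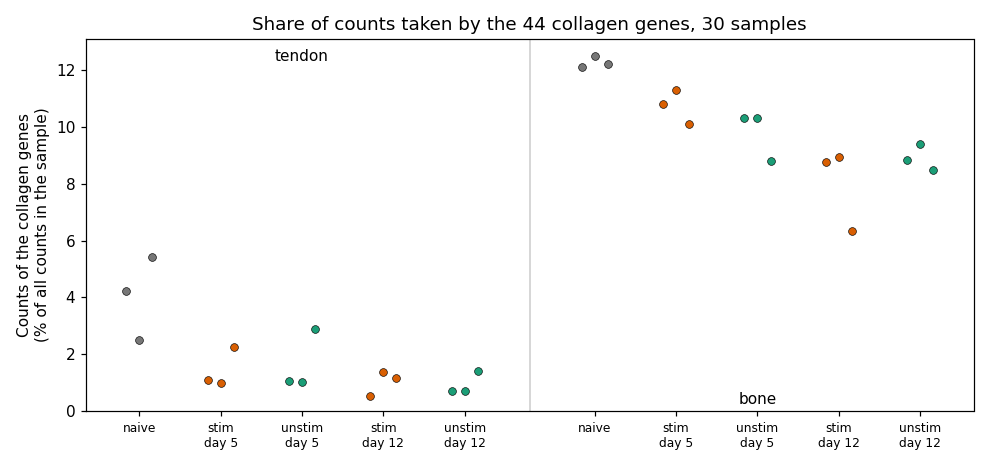
Share of all counts taken by the 44 collagen genes in each of the 30 samples (y axis, percent of counts), by group (x axis). Bone samples lie above all tendon samples, and within each tissue the naive group has the highest mean, with single samples at 2.51 to 5.43% in tendon.

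The makeup of the family by class also differed between groups. Fibrillar genes made up 88.1 ± 3.65% of collagen CPM per kb in naive tendon and 93.7 ± 0.591% in naive bone, and basement membrane genes 3.17 ± 1.22% in naive tendon and 0.525 ± 0.127% in naive bone (SD, n = 3 each). At day 12 the fibrillar part was 78.4 ± 5.95% in stimulated tendon, 77.1 ± 7.02% in unstimulated tendon and 88.1% in naive tendon. The basement membrane part was 8.56 ± 3.84% in stimulated, 9.47 ± 3.55% in unstimulated and 3.17% in naive tendon. The ratio of Col3a1 to Col1a1 per kb was 0.438 ± 0.154 in stimulated, 0.492 ± 0.236 in unstimulated and 0.216 ± 0.105 in naive tendon, and 0.293 ± 0.14 in stimulated, 0.281 ± 0.0734 in unstimulated and 0.0803 ± 0.0154 in naive bone. These are descriptions of the levels, given with no test.

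Between naive tendon and naive bone, basement membrane genes were mostly higher in tendon and fibrillar genes mostly lower, while the share of the whole family that differed was near that of all genes. In a fit over both tissues, 12 of 44 collagens were higher in tendon, where 33.3% of all 19845 genes tested passed in that direction, and 16 were lower, where 35% of all genes passed (edgeR quasi-likelihood test, adjusted p under 0.05). The median log2 difference over the collagens was 0.00 and that over all genes was -0.06. Leaving out 1 library at a time gave between 24 and 29 collagens called. The scaling factors of tendon and bone libraries differed by -0.71 on the log2 scale, so levels across tissues rest on the scaling, and DESeq2 size factors in the same fit gave 29 calls.

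Of the fibrillar genes, 9 of 11 were lower in tendon and none was higher. Col1a1 had 17900, 9250 and 24500 CPM in naive tendon, against 35300, 38600 and 35900 CPM in naive bone. Col1a2 had 24300, 10200 and 25200 CPM in naive tendon and 43400, 46700 and 45500 CPM in naive bone. Every tendon library was below every bone library for both genes, and their log2 differences were -1.09 ± 0.46 (SE, adjusted p = 0.0418) and -1.18 ± 0.5 (adjusted p = 0.0421). These 2 calls rested on single libraries. With 1 library left out, each gene was called in 1 of 6 edgeR fits, with an adjusted p of up to 0.178 for Col1a1 and 0.174 for Col1a2. Col2a1 had 126, 62 and 142 CPM in naive tendon and 2340, 2270 and 3110 CPM in naive bone, a log2 difference of -4.55 ± 0.68 (adjusted p = 4.06e-06). Col27a1, a fibrillar gene of growth cartilage, was lower by a log2 difference of -2.77 ± 0.22 (adjusted p = 4.06e-10). The genes of type V collagen, which starts fibrils and limits their width, split: Col5a1 and Col5a2 were lower in tendon, at -1.3 ± 0.24 and -1.6 ± 0.28 on the log2 scale, and Col5a3 did not pass. Col3a1 did not pass either, with 2960, 2910 and 3130 CPM in naive tendon and 3000, 2260 and 2950 CPM in naive bone. Its log2 difference was 0.13 ± 0.35, with a 95% interval of -0.6 to 0.86 (adjusted p = 0.756).

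Cartilage collagens showed the widest gap between the tissues. The FACIT genes Col9a1, Col9a2 and Col9a3, whose products coat type II fibrils, were lower in tendon by log2 differences of -6.13 ± 0.72, -5.19 ± 0.56 and -6.23 ± 0.65. Col9a1 had 5.78, 1.09 and 1.43 CPM in naive tendon and 175, 150 and 268 CPM in naive bone. Col10a1 had 13.8, 0.469 and 1.2 CPM in naive tendon and 771, 886 and 1020 CPM in naive bone, a log2 difference of -7.42 ± 1.33. In naive tendon the 8 cartilage markers summed to between 38.9 and 72.3 CPM and in naive bone to between 657 and 950 CPM, with Matn1 at or near 0 in tendon, and their part in these differences was not tested.

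In the other direction, 5 of the 6 basement membrane genes were higher in tendon and Col4a6 was lower (-1.31 ± 0.38 on the log2 scale). Col4a1 had 752, 841 and 1110 CPM in naive tendon and 387, 279 and 294 CPM in naive bone, with no overlap and a log2 difference of 1.5 ± 0.2 (adjusted p = 9.21e-07). Col4a2, its partner in the common type IV network, was higher by 1.32 ± 0.21 on the log2 scale. The multiplexin Col15a1, found at muscle and vessel basement membranes, was higher by a log2 difference of 1.51 ± 0.21. Col7a1 had 31.8, 26.4 and 18.1 CPM in naive tendon and 8.33, 5.56 and 2.74 CPM in naive bone, a log2 difference of 2.18 ± 0.4. Col8a1 was higher by 1.19 ± 0.3, Col26a1 by 3 ± 0.3 and Col6a6, a further type VI chain, by 1.97 ± 0.32 on the log2 scale. Of the other type VI genes Col6a1 did not pass, with 763, 647 and 937 CPM in naive tendon and 689, 567 and 648 CPM in naive bone (0.3 ± 0.28 on the log2 scale). The FACIT gene Col12a1, whose product binds type I fibrils, did not pass, with 241, 161 and 336 CPM in naive tendon and 326, 321 and 365 CPM in naive bone. Col22a1, the FACIT gene of the myotendinous junction, did not pass either, with 179, 204 and 365 CPM in naive tendon and 399, 403 and 336 CPM in naive bone. The 12 muscle fibre markers were also all higher in tendon, and their part in the basement membrane difference was not tested.

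**Figure D2:**
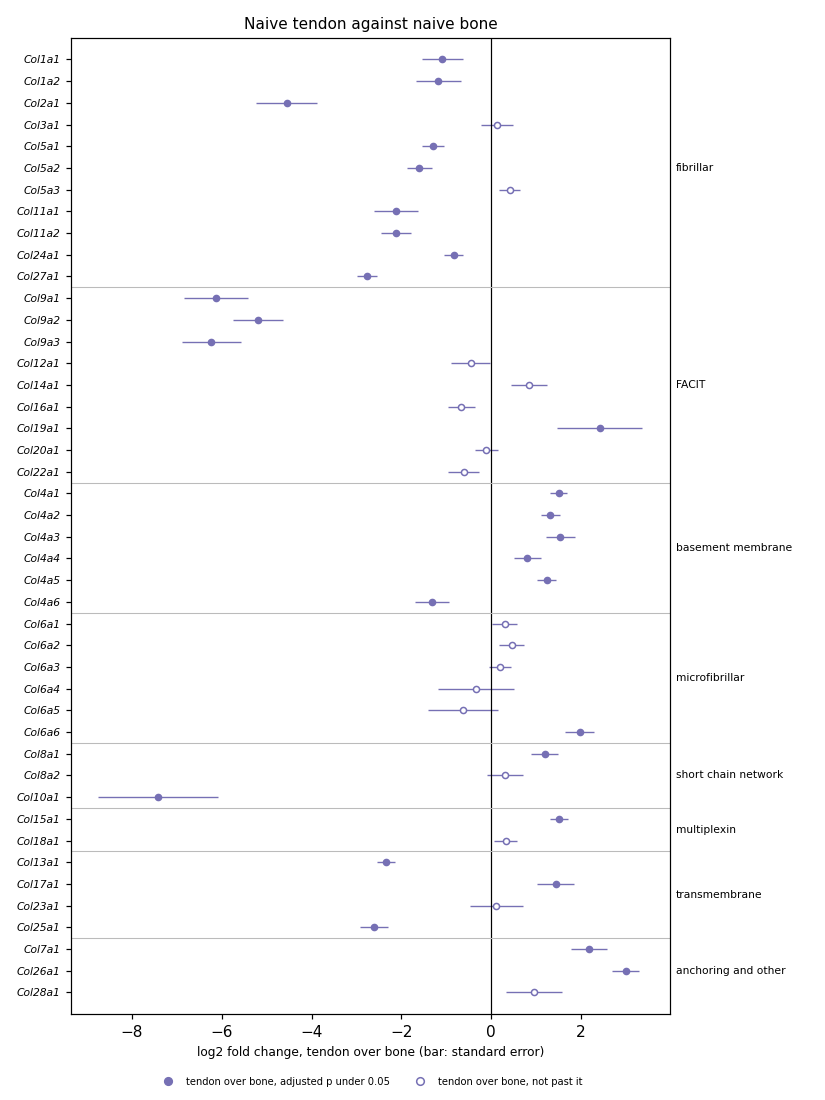
Log2 fold change of each collagen gene in naive tendon over naive bone (x axis), with its standard error (bar), by class (y axis); filled points passed an adjusted p of 0.05. Of 11 fibrillar genes 9, and all type IX genes, lie left of 0, as far as -6.23 for Col9a3, Col3a1 and Col5a3 lie right of it without passing, and 5 of 6 type IV genes lie right of it.

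Stimulated and unstimulated samples were compared within each tissue and day, at the same time point. No collagen passed the adjusted threshold in any of the 4 comparisons (edgeR). Shares of all genes, here and in later results, are those of edgeR at the adjusted threshold. Counts at an unadjusted p or by DESeq2 are given without such a share and cannot be set against it. In tendon at day 5, 0 of 43 collagens tested were called, beside 0.0585% of all 17108 genes, 8 collagens had an unadjusted p under 0.05, and DESeq2 called 4. In tendon at day 12, 0 of 43 were called beside 0.345% of all genes, with 2 at an unadjusted p under 0.05 and 0 by DESeq2. In bone at day 5, 0 of 43 were called beside 0% of all 18851 genes, with 8 at an unadjusted p under 0.05 and 0 by DESeq2. In bone at day 12, 0 of 43 were called beside 0.0371% of all genes, with 6 at an unadjusted p under 0.05 and 2 by DESeq2. A missed threshold does not show that the groups were alike: the 95% interval of the log2 difference lay within 1 unit of 0 for 15 collagens in tendon at day 5, 21 in tendon at day 12, 26 in bone at day 5 and 30 in bone at day 12.

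Type I collagen shows how wide the remaining uncertainty is in tendon. At day 5, Col1a1 had 3570, 3460 and 8380 CPM in stimulated tendon and 4260, 3190 and 9730 CPM in unstimulated tendon, a log2 difference of -0.15 ± 0.58 with a 95% interval of -1.41 to 1.11. At day 12 it had 1840, 5910 and 4350 CPM in stimulated and 2050, 2700 and 6130 CPM in unstimulated tendon, a log2 difference of 0.16 ± 0.58 with a 95% interval of -1.1 to 1.42. The libraries of the 2 conditions overlapped at both days, and Col1a2 followed Col1a1, with a log2 difference of 0.2 ± 0.64 at day 12. In bone the spread was smaller: Col1a1 had 31400, 30100 and 28400 CPM in stimulated and 29200 and 23000 CPM in unstimulated bone at day 5, a log2 difference of 0.24 ± 0.15. At day 12 it had 21400, 21700 and 18300 CPM in stimulated and 21900, 23800 and 21400 CPM in unstimulated bone, a log2 difference of -0.17 ± 0.13 with a 95% interval of -0.46 to 0.12.

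In tendon at day 5 the lowest collagens relative to unstimulated were those of cartilage, and 1 unstimulated library held their highest values. Col10a1 had 0.713, 0.457 and 2.33 CPM in stimulated tendon and 8.31, 0.963 and 150 CPM in unstimulated tendon. Col2a1 had 31.8, 11.5 and 22.1 CPM in stimulated tendon and 63.1, 31.6 and 277 CPM in unstimulated tendon, and Col9a3 had 1.05, 0.266 and 0.693 CPM in stimulated and 4.76, 1.88 and 16.5 CPM in unstimulated tendon. In each gene unstimulated replicate 3 was the highest library. The log2 differences were -3.53 ± 0.79 for Col9a3 (adjusted p = 0.174), -2.92 ± 0.67 for Col9a2 (adjusted p = 0.189), -3.62 ± 0.88 for Col9a1 (adjusted p = 0.214), -2.5 ± 0.73 for Col2a1 (adjusted p = 0.346) and -5.45 ± 1.61 for Col10a1 (adjusted p = 0.35). DESeq2 called Col9a1, Col9a2, Col9a3 and Col10a1, the last with an adjusted p of 0.0161. Without unstimulated replicate 3 the edgeR log2 differences were -2.29 for Col9a3, -1.84 for Col9a2, -2.25 for Col9a1, -1.1 for Col2a1 and -1.92 for Col10a1, and Col1a1 was at 0.47. The cartilage markers summed to 20.8, 12.4 and 17.3 CPM in stimulated and 26.5, 19 and 96.3 CPM in unstimulated tendon, and 7 Schwann cell markers reached 2370 CPM in that same replicate 3. The part of these cells in the result was not tested. Over the family, 38 of 43 collagens had a log2 difference below 0, with a median of -0.31 where that of all genes was 0.00.

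In tendon at day 12, 31 of 43 collagens were above 0, with a median of 0.15 where that of all genes was 0.01. Col7a1 had 92.7, 70.9 and 100 CPM in stimulated tendon and 53.9, 56.1 and 50.3 CPM in unstimulated tendon. All stimulated libraries were above all unstimulated ones, but the log2 difference of 0.72 ± 0.25, with a 95% interval of 0.19 to 1.25, missed the threshold (adjusted p = 0.256, and 0.122 in DESeq2). Of the 6 basement membrane genes 5 were below 0, with a median of -0.35. Col4a1 itself had 639, 747 and 679 CPM in stimulated and 744, 699 and 691 CPM in unstimulated tendon, a log2 difference of -0.04 ± 0.17. Col22a1 had 123, 395 and 105 CPM in stimulated and 237, 140 and 137 CPM in unstimulated tendon (0.28 ± 0.44 on the log2 scale), and the 2 conditions overlapped.

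In bone the type IV genes were below 0 in all 6 cases at both days, with medians of -0.14 at day 5 and -0.41 at day 12. At day 12 Col4a4, a chain of the specialised type IV network, had 3.25, 3.53 and 2.74 CPM in stimulated and 6.66, 6.22 and 6.25 CPM in unstimulated bone. The conditions did not overlap, and the log2 difference was -1.04 ± 0.23 with a 95% interval of -1.54 to -0.55 (adjusted p = 0.115). Col15a1 had 108, 145 and 94.1 CPM in stimulated and 190, 151 and 173 CPM in unstimulated bone, with a log2 difference of -0.61 ± 0.17 (adjusted p = 0.185). DESeq2 called these 2 genes. Col4a5 stood at -0.55 ± 0.16, Col8a1 at -0.53 ± 0.17 and Col10a1 at -0.95 ± 0.33 on the log2 scale, none of them called. At day 5 in bone, Col13a1, a transmembrane collagen of the neuromuscular junction, stood at 0.5 ± 0.14 and Col8a1 at -0.55 ± 0.19 on the log2 scale, both with an adjusted p of 0.493 or more.

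The difference of the stimulation effect between tissues, tested directly, was past the threshold for 0 of 44 collagens at day 5 (0% of all genes, 6 collagens at an unadjusted p under 0.05, 2 by DESeq2, Col9a2 and Col9a3) and for 0 at day 12 (0.222% of all genes, 1 at an unadjusted p under 0.05, 0 by DESeq2).

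**Figure D3:**
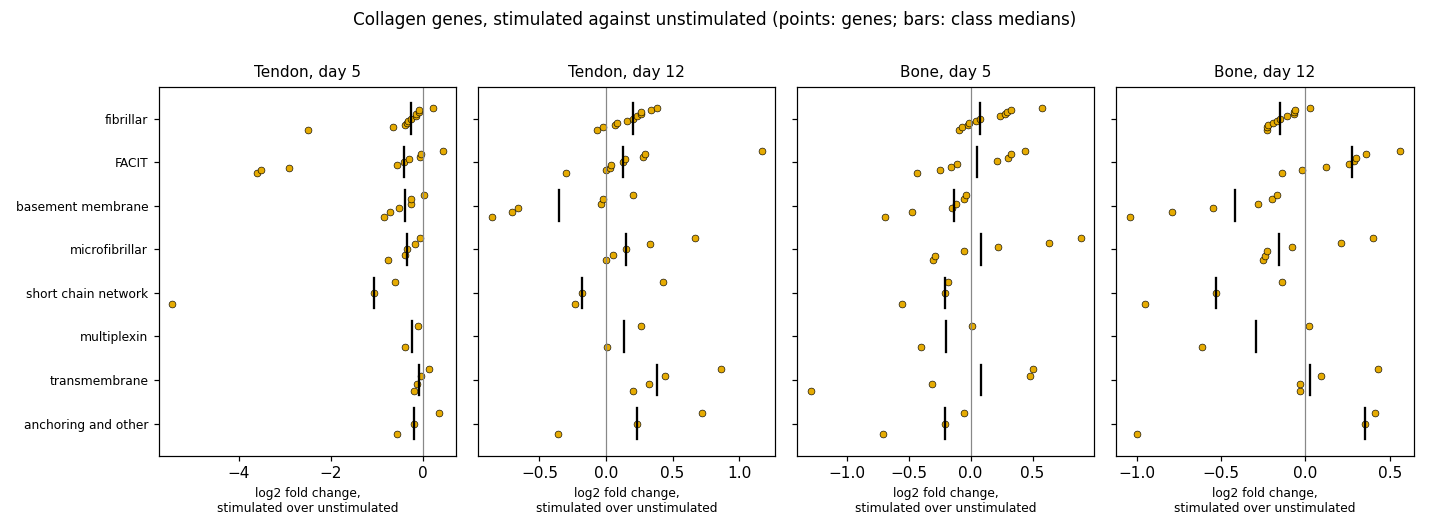
Log2 fold change of each collagen gene in stimulated over unstimulated samples (x axis; the range differs between panels) by class (y axis), for each tissue and day; points are genes and bars class medians. The points farthest left are Col10a1 and type IX genes of tendon at day 5, and no point passed the adjusted threshold.

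The comparisons with naive samples use the same naive libraries for both conditions and days, so they are not independent of each other, and their values are set side by side. By day 12 most fibre-forming and fibre-associated collagens of tendon were lower than in naive tendon, whether or not the animals were stimulated, and Col7a1 was higher. Of 43 collagens tested, 21 were lower and 1 higher in stimulated tendon at day 12, where 12.5% and 11.8% of all genes passed in those directions. In unstimulated tendon 24 were lower and 2 higher, where 10.6% and 8.17% of all genes passed. The median log2 difference over the collagens was -0.86 in stimulated and -1.12 in unstimulated tendon, where that of all genes was -0.01 and -0.03. Except for Col26a1, the libraries of called collagens did not overlap those of naive tendon. A gene called in 1 condition alone is not thereby shown to differ between the conditions.

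The fibrillar class held 9 of 11 lower genes in stimulated and 10 of 11 in unstimulated tendon. Col1a1 had 1840, 5910 and 4350 CPM in stimulated and 2050, 2700 and 6130 CPM in unstimulated tendon at day 12, against 17900, 9250 and 24500 CPM in naive tendon. Its log2 difference from naive was -2.11 ± 0.61 in stimulated (adjusted p = 0.0266) and -2.27 ± 0.61 in unstimulated tendon (adjusted p = 0.0262). Col1a2, with 2230, 7760 and 5450 CPM in stimulated, 2540, 3440 and 7570 CPM in unstimulated and 24300, 10200 and 25200 CPM in naive tendon, differed by -1.97 ± 0.66 in stimulated and -2.16 ± 0.67 in unstimulated tendon on the log2 scale. All day 12 libraries of these 2 genes lay below the lowest naive library, replicate 2. Col3a1 fell less, with 928, 1440 and 2100 CPM in stimulated, 1460, 1020 and 1810 CPM in unstimulated and 2960, 2910 and 3130 CPM in naive tendon. Its log2 differences were -1.02 ± 0.34 in stimulated (adjusted p = 0.0436) and -1.09 ± 0.34 in unstimulated tendon (adjusted p = 0.0416). With 1 library left out, Col3a1 was called in 1 of 6 edgeR fits in stimulated tendon, with an adjusted p of up to 0.149. In unstimulated tendon it was called in 0 of 6, with an adjusted p of up to 0.159. Col2a1 showed the largest fall of a called collagen, with 2.82, 11.5 and 7.15 CPM in stimulated, 7.35, 4.81 and 10.6 CPM in unstimulated and 126, 62 and 142 CPM in naive tendon. On the log2 scale this gave -3.93 ± 0.8 in stimulated (adjusted p = 0.00675) and -3.87 ± 0.79 in unstimulated tendon (adjusted p = 0.0131).

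Minor fibrillar genes fell with type I. Col11a2 had 57.3, 125 and 87 CPM in stimulated, 63.2, 55.5 and 113 CPM in unstimulated and 336, 233 and 605 CPM in naive tendon, log2 differences of -2.13 ± 0.43 in stimulated and -2.36 ± 0.44 in unstimulated tendon. Col11a1, its partner chain, had 23.7, 82 and 54.6 CPM in stimulated, 26.5, 31.9 and 69.3 CPM in unstimulated and 241, 116 and 275 CPM in naive tendon. Col5a1 had 98.9, 159 and 188 CPM in stimulated, 160, 117 and 176 CPM in unstimulated and 312, 320 and 345 CPM in naive tendon, log2 differences of -1.15 in stimulated and -1.13 in unstimulated tendon. Every day 12 library was below every naive one in these genes. Col5a2 and Col27a1 were lower in both conditions, and Col5a3 only passed the test in unstimulated tendon. Col24a1, a fibrillar gene linked to bone formation, was not called, at 0.1 in stimulated and -0.16 in unstimulated tendon on the log2 scale.

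Among FACIT genes, Col12a1, Col14a1 and Col16a1 fell in both conditions. Col12a1 had 30, 91.7 and 69.8 CPM in stimulated, 39.4, 34.9 and 82.7 CPM in unstimulated and 241, 161 and 336 CPM in naive tendon, log2 differences of -1.95 ± 0.56 in stimulated and -2.25 ± 0.57 in unstimulated tendon. Col14a1, a further coat protein of type I fibrils, differed by -1.44 in stimulated and -1.47 ± 0.45 in unstimulated tendon, and Col16a1 by -1.65 ± 0.38 in stimulated and -1.8 ± 0.38 in unstimulated tendon. Of the type IX genes, Col9a3 was called only in stimulated tendon (-2.46 ± 0.84) and Col9a2 only in unstimulated tendon (-2.61 ± 0.71). Col22a1 did not follow, with 123, 395 and 105 CPM in stimulated, 237, 140 and 137 CPM in unstimulated and 179, 204 and 365 CPM in naive tendon, and an adjusted p of 0.68 in stimulated and 0.387 in unstimulated tendon. Col19a1, a rare FACIT chain of muscle and nerve, had 2.34, 0.787 and 3.4 CPM in stimulated, 3.67, 2.11 and 2.28 CPM in unstimulated and 0.955, 0.469 and 0.233 CPM in naive tendon. It passed only in the unstimulated comparison (edgeR, 2.23 ± 0.71 on the log2 scale, adjusted p = 0.0447), and its highest library was below 4 CPM. DESeq2 called 1 FACIT gene higher in each condition.

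The microfibrillar genes Col6a1, Col6a2 and Col6a3, whose product surrounds cells and muscle fibres, fell together in both conditions. Col6a1 had 186, 385 and 379 CPM in stimulated, 299, 230 and 393 CPM in unstimulated and 763, 647 and 937 CPM in naive tendon, log2 differences of -1.32 ± 0.31 in stimulated (adjusted p = 0.0126) and -1.36 ± 0.31 in unstimulated tendon (adjusted p = 0.0167). Col6a2 gave -1.34 ± 0.3 in both comparisons, and Col6a3 gave -0.86 ± 0.28 in stimulated and -1.19 ± 0.29 in unstimulated tendon. Both type VIII genes fell. Col8a1 had 10.5, 20.9 and 18.2 CPM in stimulated, 21.2, 13.5 and 21.8 CPM in unstimulated and 75.7, 118 and 134 CPM in naive tendon, with log2 differences of -2.73 ± 0.38 in stimulated (adjusted p = 0.0019) and -2.55 ± 0.38 in unstimulated tendon (adjusted p = 0.00559). Col8a2 had 4.03, 14 and 11 CPM in stimulated, 7.99, 8.48 and 18.1 CPM in unstimulated and 45.6, 33.9 and 66.7 CPM in naive tendon, log2 differences of -2.33 ± 0.54 in stimulated and -2.09 ± 0.53 in unstimulated tendon. Day 12 and naive libraries were well apart in both genes.

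Basement membrane collagens were the class with no call: 0 of 6 type IV genes passed in either condition (edgeR), with 3 at an unadjusted p under 0.05 in stimulated and 0 in unstimulated tendon, and 0 by DESeq2 in either. Col4a1 had 639, 747 and 679 CPM in stimulated, 744, 699 and 691 CPM in unstimulated and 752, 841 and 1110 CPM in naive tendon, log2 differences of -0.4 ± 0.18 in stimulated (adjusted p = 0.107) and -0.36 ± 0.18 in unstimulated tendon (adjusted p = 0.158). At day 12 Col4a1 per kb, at 104 CPM per kb in stimulated and 108 CPM per kb in unstimulated tendon, ranked next after Col1a2, Col1a1 and Col3a1. The basement membrane associated multiplexin Col15a1 did fall, with log2 differences of -1.01 ± 0.22 in stimulated and -1.03 ± 0.22 in unstimulated tendon, and its relative Col18a1, the source of endostatin, was lower in unstimulated tendon (-0.7 ± 0.21, adjusted p = 0.04).

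Col7a1 was the one collagen called higher in both conditions by edgeR. It had 92.7, 70.9 and 100 CPM in stimulated, 53.9, 56.1 and 50.3 CPM in unstimulated and 31.8, 26.4 and 18.1 CPM in naive tendon, with log2 differences of 1.77 ± 0.25 in stimulated (adjusted p = 0.00185) and 1.05 ± 0.25 in unstimulated tendon (adjusted p = 0.0178). All day 12 libraries were above all naive ones. Among transmembrane collagens Col13a1, with 5.59, 5.78 and 6.21 CPM in stimulated, 4.73, 3.4 and 4.88 CPM in unstimulated and 9.03, 8.91 and 13.8 CPM in naive tendon, fell in both conditions, as did Col25a1, a neuronal and muscle collagen below 1 CPM in all libraries of these groups. Col26a1 was lower in unstimulated tendon (-0.62 ± 0.2, adjusted p = 0.0439). Col10a1 did not pass (adjusted p = 0.157 in stimulated and 0.151 in unstimulated tendon), with 0.361, 0.463 and 0.234 CPM in stimulated, 0.322, 0.324 and 0.134 CPM in unstimulated and 13.8, 0.469 and 1.2 CPM in naive tendon, although DESeq2 called it in both comparisons.

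The number of calls at day 12 depended on single libraries. In unstimulated against naive tendon, 26 collagens were called in all, 1 without naive replicate 3, 1 without unstimulated replicate 2, 10 without unstimulated replicate 1, and 19 or 20 in the other fits, where the collagens at an unadjusted p under 0.05 numbered 27 or 28 throughout. Over all genes the calls numbered 3209, and 207 without naive replicate 3. In stimulated against naive tendon, 22 were called, 8 without naive replicate 3, 10 without stimulated replicate 1 and 16 to 22 in the other fits. All 26 and all 22 called collagens kept their sign in each of these fits. Where libraries do not overlap, leaving out 1 can hardly turn the sign, so this was largely fixed in advance. In stimulated tendon 8 were called in every such fit: Col8a1, Col7a1, Col2a1, Col11a2, Col15a1, Col6a2, Col5a1 and Col8a2. In unstimulated tendon 1 of the 26, Col8a1, was called in every such fit.

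Some cell type markers moved along with these results. Of 12 muscle fibre markers 9 were higher in stimulated and 8 in unstimulated tendon at day 12 and 0 lower, with sums of 239000 to 288000 CPM in stimulated, 250000 to 285000 CPM in unstimulated and 129000 to 188000 CPM in naive tendon. The list was not uniform. Myh2 had 1800, 5140 and 359 CPM in stimulated, 4100, 1700 and 2170 CPM in unstimulated and 6120, 8950 and 9610 CPM in naive tendon. Myh1 had 5920, 7560 and 6830 CPM in unstimulated and 10200, 9210 and 8620 CPM in naive tendon. Of 7 tendon fibroblast markers 3 were lower in stimulated and 7 in unstimulated tendon, with sums of 553 to 1840 CPM in stimulated, 587 to 1310 CPM in unstimulated and 2140 to 3770 CPM in naive tendon. The cartilage markers summed to between 12.1 and 15.9 CPM in stimulated, 18.1 and 26 CPM in unstimulated and 38.9 and 72.3 CPM in naive tendon. All 5 erythroid markers tested were lower in both conditions, with sums of 30 to 63.3 CPM in stimulated, 35.5 to 42 CPM in unstimulated and 141 to 201 CPM in naive tendon. Of 7 osteoblast markers tested 3 were lower in both, with sums of 9.96 to 24.9 CPM in stimulated, 17.6 to 22 CPM in unstimulated and 23.9 to 75.9 CPM in naive tendon. The osteoblast marker Mepe was at 0 in all 6 tendon libraries of day 12. The part of these cells in the collagen differences was not tested.

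**Figure D4:**
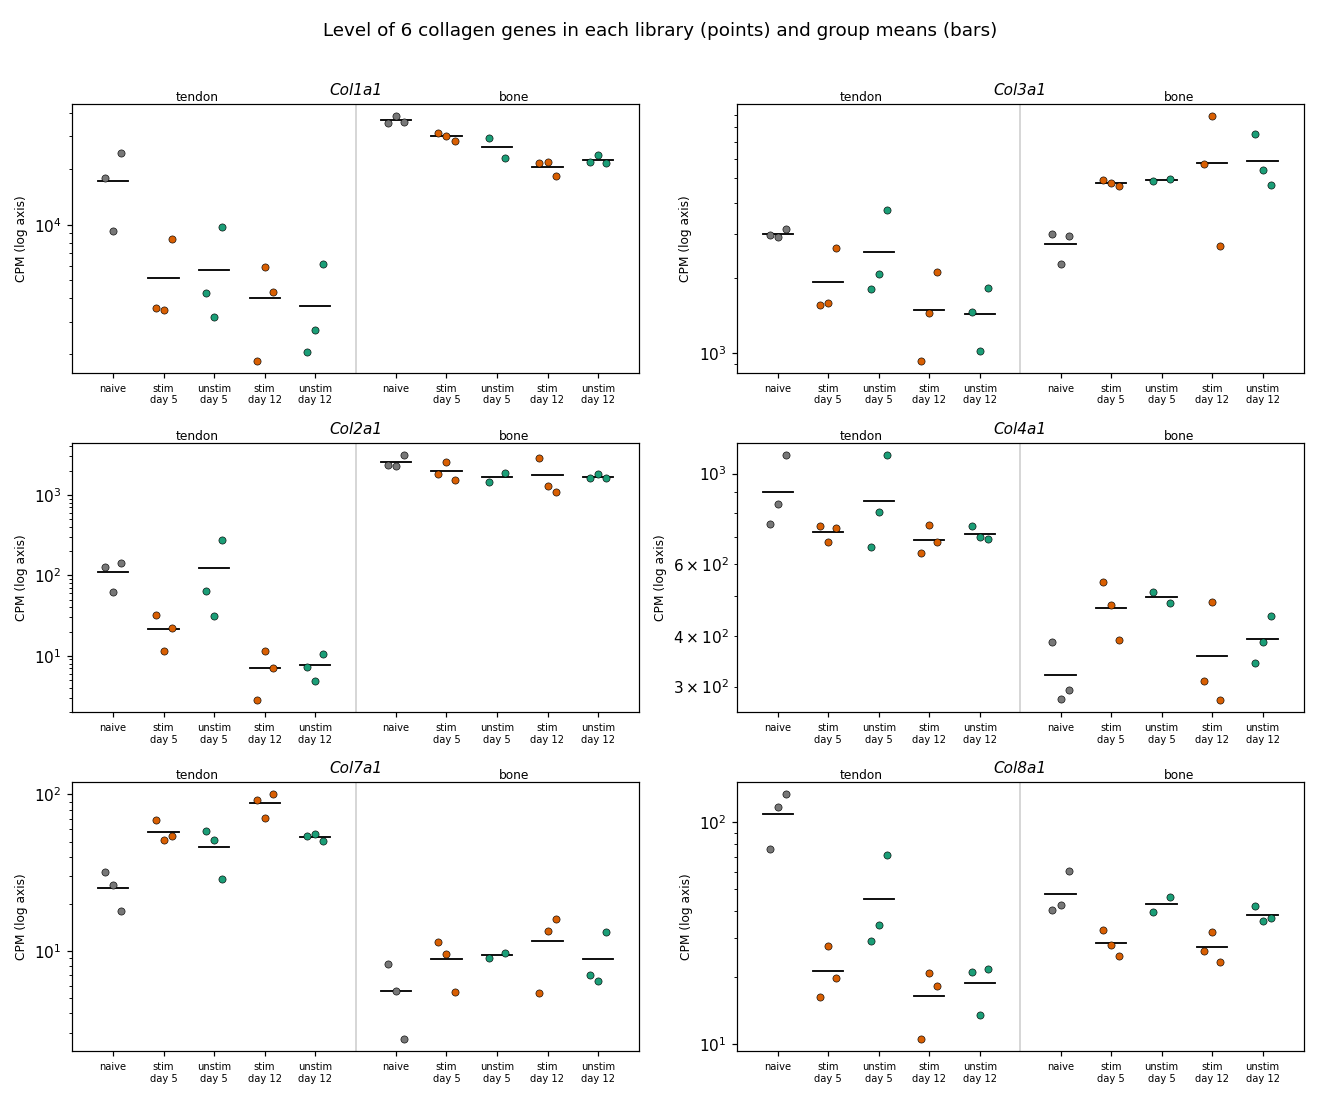
CPM of 6 collagen genes in each library (y axis, log scale; points) with group means (bars), by group (x axis), tendon left and bone right in each panel. In tendon Col1a1, Col3a1, Col2a1 and Col8a1 are lower at day 12 than in naive samples and Col7a1 is higher, while Col4a1 stays within 639 to 1110 CPM; in bone Col3a1 is mostly above its naive level.

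At day 5 fewer collagens of tendon passed against naive. In stimulated tendon Col7a1 was higher and Col8a1 and Col15a1 were lower, where 0.871% of all genes were called higher and 1.42% lower. Col8a1 had 16.3, 27.6 and 19.9 CPM in stimulated tendon at day 5 and 75.7, 118 and 134 CPM in naive tendon, a log2 difference of -2.35 ± 0.38 (adjusted p = 0.0148). Col7a1 had 68.5, 51.3 and 54 CPM in stimulated and 31.8, 26.4 and 18.1 CPM in naive tendon (1.19 ± 0.25 on the log2 scale, adjusted p = 0.0328). Col15a1 had 158, 153 and 202 CPM in stimulated and 323, 285 and 403 CPM in naive tendon (-0.98 ± 0.22, adjusted p = 0.038). Stimulated and naive libraries did not overlap in these 3 genes. All 11 fibrillar genes had log2 differences below 0, with a median of -0.91, but Col1a1 at -1.74 ± 0.6 did not pass (adjusted p = 0.144). The count of 3 became 0 without naive replicate 3 or without stimulated replicate 1, 1 without naive replicate 2 or stimulated replicate 2 and 2 without naive replicate 1, whereas DESeq2 called 11 and a fit of only the compared groups 9. Here 1 of 7 tendon fibroblast markers was lower, with sums of 993 to 2180 CPM in stimulated and 2140 to 3770 CPM in naive tendon, and their part in the result was not tested.

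In unstimulated tendon at day 5, 0 of 43 collagens passed, beside 0.0351% of all genes (edgeR), with 14 at an unadjusted p under 0.05 and 1, Col8a1, by DESeq2. Col8a1 had 29.2, 34.4 and 71.4 CPM in unstimulated and 75.7, 118 and 134 CPM in naive tendon, a log2 difference of -1.28 ± 0.36 (adjusted p = 0.336). Here too replicate 3 stood apart, with the unstimulated group's highest value of Col1a1, Col3a1, Col2a1, Col10a1 and Col8a1, and 3 collagens were called without it.

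In bone fewer collagens passed, and in both directions, with type I and type XI genes lower and Col14a1 and Col4a5 higher than in naive bone at day 12 in both conditions, and Col3a1 higher in unstimulated bone. In stimulated bone 2 of 43 collagens were higher and 8 lower, where 2.08% and 2.46% of all genes passed, and a fit of only the libraries compared called 0 collagens, with 14 at an unadjusted p under 0.05. In unstimulated bone 7 were higher and 6 lower, where 10.1% and 11.7% of all genes passed, so the share of the family called there was not far above that of all genes. The median log2 difference over the collagens was 0.03 in stimulated and 0.24 in unstimulated bone.

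Col1a1 had 21400, 21700 and 18300 CPM in stimulated, 21900, 23800 and 21400 CPM in unstimulated and 35300, 38600 and 35900 CPM in naive bone. It fell by log2 differences of -0.84 ± 0.14 (adjusted p = 0.00978) in stimulated and -0.67 ± 0.14 (adjusted p = 0.00612) in unstimulated bone. Col1a2 had 28400, 25900 and 23700 CPM in stimulated, 31600, 30800 and 26900 CPM in unstimulated and 43400, 46700 and 45500 CPM in naive bone, log2 differences of -0.8 ± 0.13 in stimulated and -0.56 ± 0.13 in unstimulated bone. No day 12 library of either gene reached a naive one. Col11a1 had 588, 417 and 447 CPM in stimulated, 539, 553 and 474 CPM in unstimulated and 803, 940 and 980 CPM in naive bone, log2 differences of -0.91 ± 0.14 in stimulated and -0.76 ± 0.14 in unstimulated bone. Col11a2 had 1110, 913 and 952 CPM in stimulated, 891, 1130 and 1010 CPM in unstimulated and 1620, 1780 and 1680 CPM in naive bone. Col24a1 and Col13a1 fell in both conditions as well, by log2 differences between -0.47 and -0.58. In stimulated bone Col24a1 was called in 3 of 6 edgeR fits with 1 library left out and Col13a1 in 0 of 6. In unstimulated bone these numbers were 6 and 4.

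Cartilage collagens of bone were less uniform. Col10a1 had 423, 248 and 142 CPM in stimulated, 385, 599 and 553 CPM in unstimulated and 771, 886 and 1020 CPM in naive bone, and it passed in stimulated bone with -1.71 ± 0.34 on the log2 scale (adjusted p = 0.0222). Col2a1 had 2890, 1270 and 1100 CPM in stimulated, 1610, 1830 and 1600 CPM in unstimulated and 2340, 2270 and 3110 CPM in naive bone and was not called. Stimulated replicate 1 overlapped the naive range in Col2a1. Col8a1 fell in stimulated bone by a log2 difference of -0.81 ± 0.17, with 26.4, 31.9 and 23.5 CPM in stimulated and 40.1, 42.6 and 60.4 CPM in naive bone.

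Col3a1 rose in unstimulated bone. It had 5730, 8890 and 2690 CPM in stimulated, 7520, 5390 and 4720 CPM in unstimulated and 3000, 2260 and 2950 CPM in naive bone. Unstimulated libraries were all above naive ones (1.14 ± 0.34 on the log2 scale, adjusted p = 0.0314), whereas stimulated replicate 3 lay within the naive range and the stimulated comparison did not pass (1.09 ± 0.34, adjusted p = 0.0816). With 1 library left out, the rise of Col3a1 in unstimulated bone was called in 2 of 6 edgeR fits, with an adjusted p of up to 0.12. Col14a1 had 74.6, 115 and 42.3 CPM in stimulated, 74.4, 54.5 and 55.4 CPM in unstimulated and 39.6, 23.1 and 32.5 CPM in naive bone, and it rose in both conditions, by 1.29 ± 0.32 in stimulated and 0.99 ± 0.32 in unstimulated bone on the log2 scale. These calls also rested on single libraries. In edgeR fits with 1 library left out, Col14a1 was called in 2 of 6 in stimulated bone (adjusted p up to 0.16). In unstimulated bone it was called in 1 of 6 (adjusted p up to 0.162). Col4a5, an X-linked chain of the specialised type IV network, had 11.6, 12.8 and 12.2 CPM in stimulated, 19.3, 18.2 and 14.6 CPM in unstimulated and 7.63, 4.96 and 6.11 CPM in naive bone. Its log2 differences were 0.97 ± 0.17 in stimulated (adjusted p = 0.0122) and 1.51 ± 0.17 in unstimulated bone (adjusted p = 0.000651), with all naive libraries lowest. Col4a4, at 6.66, 6.22 and 6.25 CPM in unstimulated and 3.59, 1.96 and 2.05 CPM in naive bone, rose in unstimulated bone by 1.36 ± 0.23 on the log2 scale. Col4a3, its partner chain, rose there too, at 1.55, 1.59 and 2.07 CPM in unstimulated and 1.15, 0.741 and 0.58 CPM in naive bone (1.09 ± 0.35 on the log2 scale). The unstimulated libraries were above the naive ones in both genes. Col8a2 and Col15a1 also rose in unstimulated bone, by 0.63 ± 0.19 and 0.58 ± 0.17. Col4a3 and Col8a2 were each called there in 1 of 6 edgeR fits with 1 library left out, and Col15a1 in 2 of 6. All 6 microfibrillar genes were above 0 in unstimulated bone and 0 were called (edgeR), with 1 at an unadjusted p under 0.05 and 1, Col6a1, called by DESeq2. Col6a1 had 773, 1040 and 516 CPM in stimulated, 994, 838 and 855 CPM in unstimulated and 689, 567 and 648 CPM in naive bone. Neither Col12a1, at 349, 317 and 218 CPM in stimulated, 316, 209 and 269 CPM in unstimulated and 326, 321 and 365 CPM in naive bone, nor Col22a1, at 276, 323 and 236 CPM in stimulated, 274, 317 and 306 CPM in unstimulated and 399, 403 and 336 CPM in naive bone, was called.

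At day 5 in bone, Col4a5 was the 1 collagen called by edgeR in each condition against naive, where DESeq2 called 6 in stimulated and 10 in unstimulated bone. It had 15.5, 10.7 and 14.3 CPM in stimulated, 14.8 and 13.7 CPM in unstimulated and 7.63, 4.96 and 6.11 CPM in naive bone, log2 differences of 1.15 ± 0.17 in stimulated (adjusted p = 0.0308) and 1.19 ± 0.18 in unstimulated bone (adjusted p = 0.0214). Of all genes 0.212% passed as higher in the stimulated and 0.382% in the unstimulated comparison, and 12 collagens in the stimulated and 17 in the unstimulated comparison had an unadjusted p under 0.05. With 1 library left out, Col4a5 was called in 2 of 6 fits of the stimulated comparison, with an adjusted p of up to 0.139, and in 1 of 5 fits of the unstimulated comparison, that without naive replicate 1, with an adjusted p of up to 0.0975. The collagens called numbered 0 in both comparisons without naive replicate 2 or 3, 0 in the stimulated one without stimulated replicate 1 or 3, and 2 in the unstimulated one without naive replicate 1 or without the summed pair. In a fit of only the libraries compared, 0 collagens were called in either comparison, with 17 in the stimulated and 23 in the unstimulated one at an unadjusted p under 0.05.

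The day 12 counts in bone also moved with single libraries. In stimulated bone the count of 10 became 1 without naive replicate 2, 3 without naive replicate 3 and 6 without stimulated replicate 2, and 1 gene, Col11a1, was called in every such fit. In unstimulated bone the count of 13 became 7 without naive replicate 2, 8 without naive replicate 3 and 8 without unstimulated replicate 1 or 3, and 6 genes were called throughout. Of 7 tendon fibroblast markers 2 were called higher in stimulated and 4 in unstimulated bone at day 12 and 0 lower, with sums of 1930 to 2190 CPM in stimulated, 1520 to 2660 CPM in unstimulated and 751 to 1080 CPM in naive bone. Egr1 of that list did not rise, with 31.1, 46.5 and 21.4 CPM in stimulated, 53.1, 34.8 and 41.4 CPM in unstimulated and 37.6, 47 and 62.1 CPM in naive bone. Of 9 osteoblast markers a minority was lower, 3 in stimulated and 2 in unstimulated bone, with sums of 2640 to 3670 CPM in stimulated, 3370 to 4280 CPM in unstimulated and 3640 to 4990 CPM in naive bone. The median log2 difference of the list was -0.56 in stimulated and -0.23 in unstimulated bone. Ibsp of that list had 1110, 701 and 698 CPM in stimulated, 951, 800 and 835 CPM in unstimulated and 697, 766 and 889 CPM in naive bone. In unstimulated bone all 7 erythroid markers and 5 of 7 neutrophil markers were lower and 4 of 6 adipocyte markers higher. No marker of these lists was at 0 in bone, and their part in the result was not tested.

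**Figure D5:**
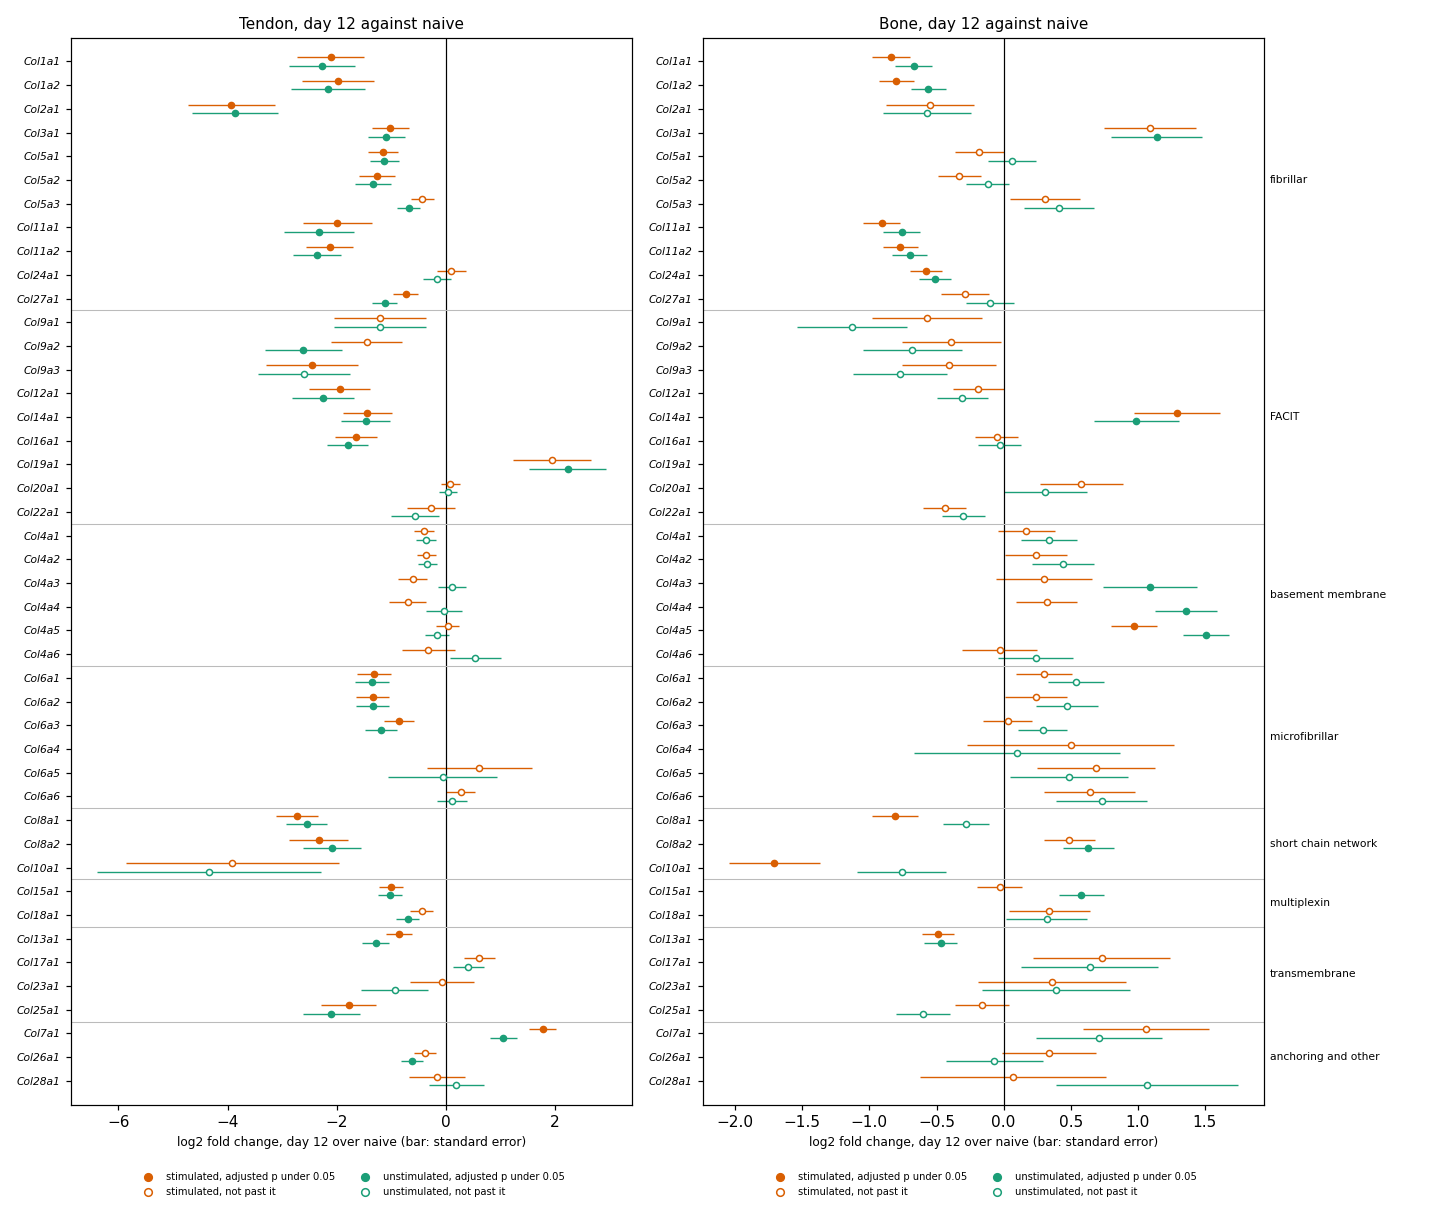
Log2 fold change of each collagen gene at day 12 over naive (x axis; the range differs between panels), with its standard error (bar), in tendon and bone, stimulated above unstimulated for each gene; filled points passed an adjusted p of 0.05, and Col6a4 in tendon and Col19a1 in bone were too low to test. Most fibrillar genes and Col6a1, Col6a2 and Col6a3 lie left of 0 in tendon and Col7a1 and Col19a1 right of it, whereas in bone Col1a1 and Col11a1 lie left and Col3a1, Col14a1 and Col4a5 right of it.

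Whether unstimulated tendon and bone departed from naive by different amounts was tested in the fit over both tissues. At day 12, 18 of 44 collagens had a lower difference in tendon than in bone and none a higher one, where 9.39% of all genes passed as lower. The 18 comprised 7 fibrillar, 2 basement membrane, 3 FACIT, 3 microfibrillar and 2 short chain genes and the multiplexin Col15a1. Col3a1, lower in tendon and higher in bone, had a difference of -2.17 ± 0.5 on the log2 scale (adjusted p = 0.00559), and Col14a1, with the same opposite calls, -2.41 ± 0.58 (adjusted p = 0.00732). Col15a1 and Col8a2 were likewise lower in tendon and higher in bone, with differences of -1.55 ± 0.29 and -2.66 ± 0.59. Col4a5, not called in tendon and higher in bone, had -1.62 ± 0.29 (adjusted p = 0.000964), and Col6a1 had -1.84 ± 0.39 (adjusted p = 0.00325). Col1a1 and Col1a2, lower in both tissues, were not among the 18. The count was between 11 and 19 when single libraries were left out, with 11 without unstimulated tendon replicate 2 and 12 without naive tendon replicate 3, unstimulated tendon replicate 1 or naive bone replicate 2. Of the 18, 11 were called in every such fit. At day 5, 0 of 44 collagens passed beside 0.0101% of all genes (edgeR), with 18 at an unadjusted p under 0.05 and 2, Col15a1 and Col4a5, by DESeq2; 4 were called without unstimulated tendon replicate 3 and 1 without unstimulated bone replicate 3.

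Most genes that modify, fold and crosslink collagen chains were lower in tendon at day 12. Of 32 biosynthesis genes tested, 23 were lower in stimulated and 22 in unstimulated tendon, where 12.5% and 10.6% of all genes were lower, and none was higher. They included the prolyl hydroxylase subunit P4ha3 (-1.84 ± 0.35 in stimulated and -2.38 ± 0.36 in unstimulated tendon on the log2 scale), the lysyl oxidase Loxl1 (-1.51 ± 0.26 in stimulated and -1.47 ± 0.26 in unstimulated tendon), the chaperone Fkbp14 in stimulated tendon (-1.23 ± 0.21) and its relative Fkbp10 in unstimulated tendon (-1.5 ± 0.3). Of 9 collagen receptors tested, 3 were lower in each condition: the uptake receptor Mrc2, the integrin Itga11 and the kinase Ddr2. Stimulated tendon at day 5 had 3 lower biosynthesis genes, P3h1, P4ha3 and Fkbp14, where 1.42% of all genes were lower and DESeq2 called 13 of the list, and unstimulated tendon at day 5 had 0 (edgeR), with 17 at an unadjusted p under 0.05 and 1 by DESeq2. In bone at day 12 few of the list passed, with 2 lower in stimulated bone (Loxl4 and P3h1, where 2.46% of all genes were lower and DESeq2 called 7 of the list) and 3 higher and 1 lower in unstimulated bone, where 10.1% and 11.7% of all genes passed. None of these genes was called between stimulated and unstimulated samples in any of the 4 comparisons (edgeR), with 3, 1, 5 and 11 biosynthesis genes at an unadjusted p under 0.05 in tendon at day 5 and day 12 and in bone at day 5 and day 12. For the receptors these numbers were 0, 1, 1 and 3. DESeq2 called none of either list in tendon or in bone at day 5, and 2 biosynthesis genes and 3 receptors in bone at day 12.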

How the data were processed

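Gene counts of 30 samples of mouse Achilles tendon and calcaneus were used. RNA came from PureLink kits and was sequenced as poly-A libraries, per the labels' protocols. Per the submitters' processing notes, cutadapt 2.3, FastQC 0.11.8, STAR 2.7.8a, RSEM 1.3.3 and MultiQC 1.7 were used on GRCm38; which annotation and strand setting were used is not given in the sources used here. Deposited values are the authors' RSEM expected counts, estimated counts that were already whole (0 values were not), so none changed on rounding.

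The main test was edgeR 4.0.16, run in R 4.3.3 (TMM; genes kept by filterByExpr at min.count 10 and min.total.count 15; robust quasi-likelihood fits over all libraries of a tissue, or of both for comparisons between tissues; Benjamini-Hochberg adjustment over all genes tested at 0.05) and with DESeq2 1.42.0 as an alternative. The steps were tested on simulated data. Of the collagens, 43 passed the filter in tendon, 43 in bone and 44 over both. Each ± beside a log2 difference is its standard error. CPM are counts scaled to 1000000 by TMM-adjusted totals over both tissues, and levels per kb use the APPRIS principal transcript of GENCODE M21. The precision of each value is that of the spread between libraries.

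There were 17 comparisons: stimulated against unstimulated (4), each against naive (8), naive tendon against naive bone (1), and the differences between tissues of the stimulation effect (2) and of unstimulated against naive (2). No label states that replicates come from different animals; the p-values therefore reflect the spread among these samples alone, possibly a technical one. Members, lists and tests were chosen with earlier results of these data known. Any collagen may be named; values per sample are given for Col1a1, Col1a2, Col3a1, Col2a1, Col4a1, Col6a1, Col12a1, Col10a1, Col22a1 and called genes with the largest differences, and up to 4 genes of the biosynthesis and receptor lists per comparison. Further values, such as those of Col7a1, Col4a4 and Col15a1 where not called, were given after they were seen.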

Additional observations from a re-analysis of the deposited data

Results flagged for a closer look

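In the 12-day comparison of unstimulated with naive samples, 18 collagens differed between tendon and bone by a direct test of that difference (edgeR, adjusted p under 0.05), each with the lower value in tendon. The values are log2 differences, tendon minus bone. Fibrillar genes were Col2a1 at -3.24, Col3a1 at -2.17, Col11a2 at -1.59, Col5a2 at -1.17, Col5a1 at -1.12, Col5a3 at -1.04 and Col27a1 at -0.96. FACIT genes were Col14a1 at -2.41, Col12a1 at -1.88 and Col16a1 at -1.71. Microfibrillar genes were Col6a1 at -1.84, Col6a2 at -1.75 and Col6a3 at -1.41. The type VIII genes were Col8a2 at -2.66 and Col8a1 at -2.22, the basement membrane genes Col4a5 at -1.62 and Col4a4 at -1.34, and the multiplexin Col15a1 stood at -1.55. Of the 18, 11 were called in all 12 edgeR fits that left out 1 library. The others were Col5a2, called in 2 of 12, Col5a3 and Col12a1 in 3, Col27a1 in 4, Col4a4 in 5, Col5a1 in 8 and Col11a2 in 9. Col4a5 and Col4a4 were called in unstimulated bone and not in unstimulated tendon against naive, and the other basement membrane genes were not among those that differed between tissues. By the same test of the difference between tissues, 6 of 7 tendon fibroblast, 5 of 9 osteoblast, 5 of 6 adipocyte and 2 of 8 cartilage markers had the lower value in tendon, with medians of -2.88, -3.95, -2.19 and -1.23, and their part in the collagen values was not tested. The osteoblast markers were low in tendon, with sums of 23.9 to 75.9 CPM in naive and 17.6 to 22 CPM in unstimulated samples at day 12. The 12 muscle fibre markers had a median of -0.12 and the 7 erythroid markers one of 0.05.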

How the results depend on the processing

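No called collagen changed sign under any alternative, which for genes whose libraries did not overlap was largely fixed in advance. Counts of called collagens stayed within 1.5 times with the exceptions given here, and the cause was not tested. The calls over all genes under these alternatives are not given beside them. DESeq2 called 4 against 0 for stimulated against unstimulated tendon at day 5, 2 against 0 in bone at day 12 and 2 against 0 for the difference of that effect between tissues at day 5. Against naive it called 11 against 3 in stimulated and 1 against 0 in unstimulated tendon at day 5, 6 against 1 in stimulated and 10 against 1 in unstimulated bone at day 5, and 2 against 0 for their difference between tissues at day 5. Without the filter on low counts, 13 against 22 and 14 against 26 were called in stimulated and unstimulated tendon at day 12, 1 against 3 in stimulated tendon at day 5 and 2 against 1 in unstimulated bone at day 5. A fit of only the libraries compared called 9 against 3 in stimulated tendon at day 5, and 0 in stimulated and in unstimulated bone at day 5 and in stimulated bone at day 12. Keeping the near-identical bone pair as 2 libraries gave 4 against 1 in unstimulated bone at day 5.

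Leaving out 1 library at a time gave 0 to 0 calls in all comparisons of stimulated with unstimulated samples and in the difference of that effect between tissues. Against naive it gave 0 to 3 in stimulated and 0 to 3 in unstimulated tendon at day 5, 8 to 22 and 1 to 20 at day 12, 0 to 1 and 0 to 2 in bone at day 5, and 1 to 9 and 7 to 13 in bone at day 12. Leaving out either library of unstimulated bone at day 5 left 1 there, assumed to vary like the other groups. The range was 24 to 29 for naive tendon against naive bone, and 0 to 4 and 11 to 19 for the difference of unstimulated against naive between tissues at day 5 and day 12.

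The labels do not say that a replicate number marks the same animal. Deviations of same-numbered samples correlated between -0.16 and 0.24 over 12 pairs, 4 of them over 0.1, and in 4 pairs the shared number gave the best correlation. With the replicate number as a block, 13 collagens against 3 were called in stimulated tendon and 4 against 1 in unstimulated bone against naive at day 5; the other counts stayed within 1.5 times, with 22 in stimulated and 26 in unstimulated tendon against naive at day 12.

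The limit is 3 libraries a group, or 2 in unstimulated bone at day 5, with a median standard error of log2 differences between stimulated and unstimulated samples of 0.34 in tendon at both days, 0.26 in bone at day 5 and 0.23 at day 12. Levels per kb moved for 7 of 88 gene and tissue pairs when the longest transcript set the length.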
